A study of Caenorhabditis elegans with 2 samples.

Results

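The histone genes of Caenorhabditis elegans described here are the 72 protein-coding genes, of 19973 in the Ensembl WBcel235 annotation, whose symbol starts with his-. They encode 17 copies of histone H2A, 16 of H2B, 15 of H3 and 16 of H4, 5 genes of the H3.3 type, the linker histone gene his-24 and 2 histone-fold fragments, his-39 and his-73. Binding of the neuronal POU homeodomain factor UNC-86 near them was read from chromatin immunoprecipitation and sequencing (ChIP-seq) in 2 biological replicates of 1 group. The animals were hermaphrodites of strain OP476, genotype unc-119(tm4063) III; wgIs476, collected whole as late embryos 3.5 hours after eggs were synchronized by bleaching. The transgene wgIs476 supplied UNC-86 with GFP and FLAG at its C-terminus, and sonicated chromatin was pulled down with an antibody to GFP. The measured factor was therefore the tagged transgene product in all tissues together, and no group without the tag or with another genotype was analysed here.

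H2A, H2B, H3 and H4 form the protein core of the nucleosome, and H1 binds the linker DNA between nucleosomes. Most core histone genes are present in many near-identical copies, are transcribed when DNA is replicated, and make mRNAs that end in a stem-loop bound by the protein CDL-1. The H3.3 variants, among them HIS-71 and HIS-72, are placed into chromatin outside replication as well. In the worm, core histone genes lie largely as divergent pairs, an H2A gene facing an H2B gene or an H3 gene facing an H4 gene across a short shared upstream region. UNC-86 is known for the specification of neuron classes such as the touch receptor neurons.

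The 72 genes fell into 41 promoter units, of which 31 were divergent pairs and 10 were single genes. Of the pairs, 16 joined H2A with H2B, 14 joined H3 with H4, and his-67/his-68 joined an H4 gene with an H2A gene. The facing gene ends were 227 to 368 bases apart, with a median of 258. For 65 of the 72 genes the annotated transcript start is the start of the coding sequence. Distances and promoter windows at those genes are counted from there. The units formed 19 clusters (runs of histone genes with gaps under 10 kb), with 27 genes on chromosome V, 22 on IV, 14 on II, 4 on X, 3 on III and 2 on I. The sequence between facing genes is itself often a copy: the 31 pairs had 21 distinct sequences, and 16 pairs shared theirs exactly with at least 1 other pair.

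The upstream regions that the results turn on are shown from the RefSeq WBcel235 sequence (the ce11 build). The first 3 are closely similar H2B to H2A regions of chromosome V that differ in whether the deposited lists held an entry there. They are V:16040516-16040807 on the plus strand, V:8533087-8533378 on the plus strand and V:8850172-8850463 on the minus strand. The next runs toward the his-61 start codon under one of the strongest histone peaks, IV:7486218-7486517 on the minus strand, and the last is the 250 bases before the his-37 transcript start, V:9546855-9547104 on the plus strand. Each is written 5′ to 3′, and capitals mark 4 short words on either strand: the TATA-box word TATAAA, the promoter box word CCAAT, the histone promoter word CTCCNCC and the repeat GAGAGAGA, with overlapping matches run together.
his-4/his-3: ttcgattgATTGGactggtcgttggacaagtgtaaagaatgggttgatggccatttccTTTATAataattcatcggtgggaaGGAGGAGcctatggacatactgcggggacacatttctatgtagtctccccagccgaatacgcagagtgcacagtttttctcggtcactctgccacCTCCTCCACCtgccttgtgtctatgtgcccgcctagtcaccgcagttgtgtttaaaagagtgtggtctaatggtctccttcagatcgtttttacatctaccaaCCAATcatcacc
his-8/his-7: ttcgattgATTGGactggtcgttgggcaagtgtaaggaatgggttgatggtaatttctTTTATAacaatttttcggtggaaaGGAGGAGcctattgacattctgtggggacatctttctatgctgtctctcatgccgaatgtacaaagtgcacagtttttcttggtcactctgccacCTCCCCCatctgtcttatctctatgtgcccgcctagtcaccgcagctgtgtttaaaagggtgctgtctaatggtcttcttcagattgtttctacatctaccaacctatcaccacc
his-51/his-52: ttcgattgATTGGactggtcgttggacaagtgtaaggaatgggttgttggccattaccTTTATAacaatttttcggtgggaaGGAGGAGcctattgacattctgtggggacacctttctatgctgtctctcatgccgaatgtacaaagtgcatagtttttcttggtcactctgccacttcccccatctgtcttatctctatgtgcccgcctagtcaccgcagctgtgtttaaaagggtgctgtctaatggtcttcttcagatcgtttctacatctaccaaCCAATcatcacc
his-61/his-62: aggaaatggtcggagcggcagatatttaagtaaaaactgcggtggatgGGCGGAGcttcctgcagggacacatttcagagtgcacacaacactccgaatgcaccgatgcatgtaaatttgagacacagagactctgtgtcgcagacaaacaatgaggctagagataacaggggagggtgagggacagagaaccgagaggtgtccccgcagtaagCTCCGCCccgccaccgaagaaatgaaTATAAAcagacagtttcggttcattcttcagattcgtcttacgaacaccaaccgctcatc
his-37: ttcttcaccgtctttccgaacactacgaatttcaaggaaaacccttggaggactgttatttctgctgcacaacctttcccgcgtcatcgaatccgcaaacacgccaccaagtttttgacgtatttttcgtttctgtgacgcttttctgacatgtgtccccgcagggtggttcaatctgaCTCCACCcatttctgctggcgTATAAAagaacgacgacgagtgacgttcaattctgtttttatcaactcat

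The his-4/his-3 region held a pooled summit (the strongest point of a listed interval) at base 65, whereas no summit of any of the 4 lists lay within the his-8/his-7 or the his-51/his-52 region. That summit had a −log10 q of 0.269 and was not among the IDR peaks described below. The 3 pairs also differ in repeated sequence. The mean share of 36-base words about the starts found more than once in the genome was 34.9% at his-4/his-3, 55.8% at his-8/his-7 and 100% at his-51/his-52. The his-51/his-52 sequence is present in 4 exact copies, at his-51/his-52, his-54/his-53, his-21/his-22 and his-20/his-19. It was 95.5% identical to the his-8/his-7 region, with a longest shared run of 84 bases, and 88.7% identical to the his-4/his-3 region, with a longest shared run of 35 bases. In the his-61/his-62 region the pooled summit lay at base 121 of the printed sequence, and upstream of his-37 at base 155.

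The deposited lists hold no read counts, so the depth behind each value is unknown. The ce11 IDR list held 816 peaks past the irreproducible discovery rate analysis. The pooled list, made from both replicates together, held 12784 entries, that of replicate 1 held 17498 and that of replicate 2 held 18470. These 3 lists are the input to the IDR analysis and hold background regions beside peaks, so an entry in them is not by itself a peak. The median −log10 q, the authors' value, was 3.08 in the IDR list, 0.0757 in the pooled list, 0.0899 in that of replicate 1 and 0.0726 in that of replicate 2. A q of at most 0.05 was reached by 816 of 816 IDR entries, 1097 pooled entries (8.58%), 1163 entries of replicate 1 (6.65%) and 853 of replicate 2 (4.62%). The signal of an entry is the authors' value, used here only to rank entries within 1 list, and ran from 64.7 to 838 with a median of 90.9 in the IDR list and from 25.6 to 838 with a median of 31.8 in the pooled list. A summit was matched to a replicate when that replicate had a summit within 100 bp, which held in both replicates for 767 of the 816 IDR peaks and for 3825 (29.9%) of the pooled entries. The 4 lists come from the same 2 libraries and are not independent of each other.

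UNC-86 peaks of the IDR list were present at few histone genes. A summit within 2 kb of a transcript start was listed for 9 of 72 histone genes (12.5%), against 5.65% of all protein-coding genes. These 9 genes, his-35, his-37, his-41, his-59, his-60, his-61, his-62, his-67 and his-68, shared only 4 distinct peaks at 3 clusters, so their number is not that of separate binding events. When each peak was given only to the gene of the nearest start, 3 histone genes (4.17%) were left, against 3.23% of all protein-coding genes. The background counts over all protein-coding genes include the histone genes. In promoter units, 5 of 41 had an IDR summit within 2 kb and 3 had the nearest one.

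The strongest histone peak lay between his-67, an H4 gene, and his-68, an H2A gene, on chromosome I. Its interval was I:9988754-9989193, its summit at 9988974 was 158 bp upstream of his-68 and 211 bp upstream of his-67, and its pooled signal was 182, rank 94 of the pooled list. The replicates ranked it alike: replicate 1 listed it with a signal of 98.6 at rank 80 and replicate 2 with a signal of 90.2 at rank 93. This pair also stands apart in its layout, being the only H2A/H4 pair, and in having the longest region between facing genes, 368 bases.

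The next peak lay between his-61, an H2A gene, and his-62, an H2B gene, on chromosome IV (interval IV:7486177-7486616). Its summit at 7486397 was 148 bp upstream of his-62 and 180 bp upstream of his-61, with a pooled signal of 110 at rank 274. Replicate 1 gave it a signal of 52.7 at rank 341 and replicate 2 a signal of 58.5 at rank 243. The neighbouring H3/H4 pair his-59 and his-60 was counted with this summit through the 2 kb window, and it also had pooled summits of its own, outside the IDR list. One of them, with a signal of 46.7 at rank 1739, lay between the pair 110 bp upstream of his-59, and the other, with 55.4 at rank 1155, lay 56 bp inside the his-60 coding exon. Here the replicates differed in place: replicate 1 had a signal of 42.2 at rank 557 between the pair, 94 bp upstream of his-60, while replicate 2 had 41.0 at rank 544 inside his-60, 237 bp past its start.

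The other 2 IDR peaks lay at the small cluster of his-35 (H2A), his-41 (H2B) and his-37 (H4) on chromosome V. The peak V:9546789-9547228 had its summit at 9547009, 96 bp upstream of the single gene his-37, with a pooled signal of 103 at rank 309. It was listed in replicate 1 with 61.4 at rank 241 and in replicate 2 with 42.3 at rank 506. The peak V:9544182-9544621 (74.4, rank 604) had its summit 886 bp downstream of the his-35 start but only 176 bp upstream of mdf-1, a spindle checkpoint gene, which was the nearest start. Between his-35 and his-41 themselves the pooled list had no summit, replicate 1 had none, and replicate 2 had a weak one (21.1, rank 4456) 11 bp upstream of his-41.

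**Figure D1:**
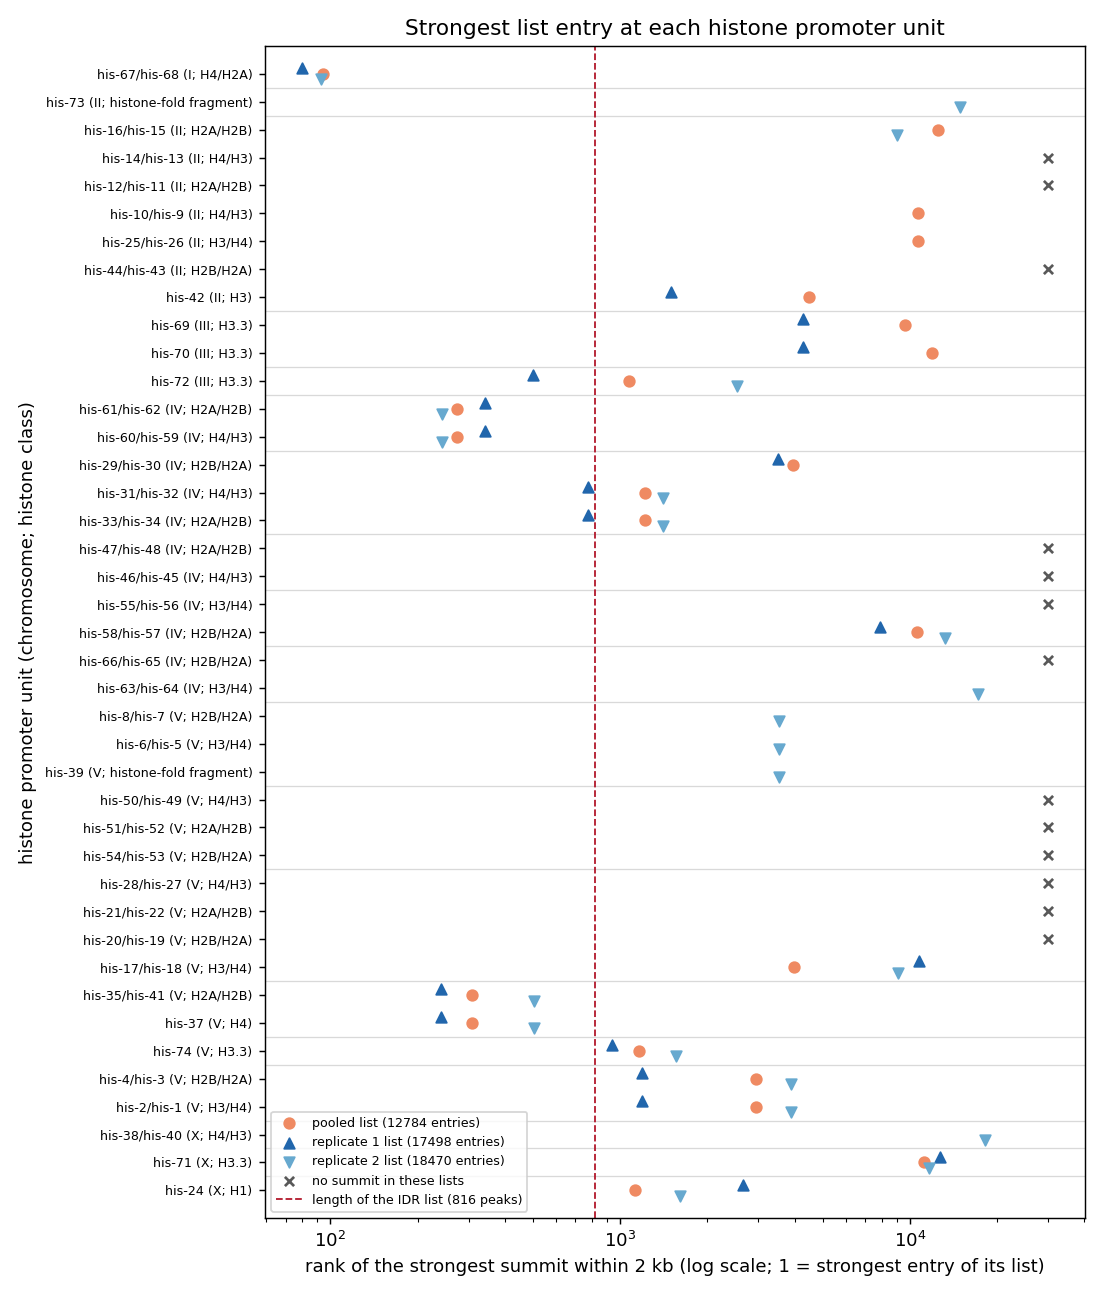
Rank, on a log scale, of the strongest summit within 2 kb of each of the 41 histone promoter units (rows, with chromosome and histone class; grey lines part the clusters) in the pooled list and in each replicate's list; a summit can serve neighbouring units. Ranks under 816, the length of the IDR list (dashed line), are confined in the pooled list to the units of his-67/his-68, his-61/his-62, his-60/his-59, his-35/his-41 and his-37.

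In the pooled list the share of histone genes lay above or below that of all genes depending on how peaks were assigned, and no test was run. A pooled summit lay within 2 kb of 35 of 72 histone genes (48.6%), against 40.7% of all protein-coding genes, from 28 distinct entries. Most of these had a q above 0.05: their −log10 q ran from 0.0179 to 3.08 with a median of 0.165, and 5 of the 28 had a q of at most 0.05. Those 5 were the 4 IDR peaks and the his-72 summit. They lay within 2 kb of 10 of 72 histone genes, against 7.26% of all protein-coding genes at that q. With nearest starts alone the count was 16 histone genes (22.2%), against 30.8% of all protein-coding genes. That rule gives a summit between paired genes only to the nearer gene of the pair. In promoter units, 14 of 41 (34.1%) had the nearest pooled summit. In replicate 1 the 2 kb count was 29 histone genes (40.3%), against 50.7% of all protein-coding genes, and in replicate 2 it was 36 (50%), against 52.6%. Both replicates together listed 25 histone genes (34.7%), against 35.2%, and 28 histone genes (38.9%) had no summit within 2 kb in any of the 4 lists, against 31.4%. At a q of at most 0.05, replicate 1 listed 15 of 72 histone genes, against 7.39%, and replicate 2 listed 9 of 72, against 5.55%. Both listed 9 of 72, against 4.29%. These counts rest on 8 entries of replicate 1 and 5 of replicate 2. The 9 genes listed by both are those of the IDR list. Nearly all histone genes (70 of 72, 97.2%) had a single annotated transcript start, against 72.6% of all protein-coding genes, so the windows searched were not the same size for both.

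Of the 28 pooled entries at histone genes, 17 had a summit between protein-coding genes, 7 had a summit inside a histone gene, and 11 were within 300 bp of a histone start. A summit lay between the facing genes of 5 of the 31 divergent pairs in the pooled list: his-67/his-68, his-61/his-62, his-60/his-59, his-31/his-32 and his-4/his-3. Replicate 1 had the same 5 pairs, and replicate 2 had his-35/his-41 in place of his-60/his-59. For 9 of the 28 entries, 5 of them between genes, the nearest start was that of a gene outside the histone set. Such places were not counted over the whole lists, so these numbers describe the histone entries only.

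**Figure D2:**
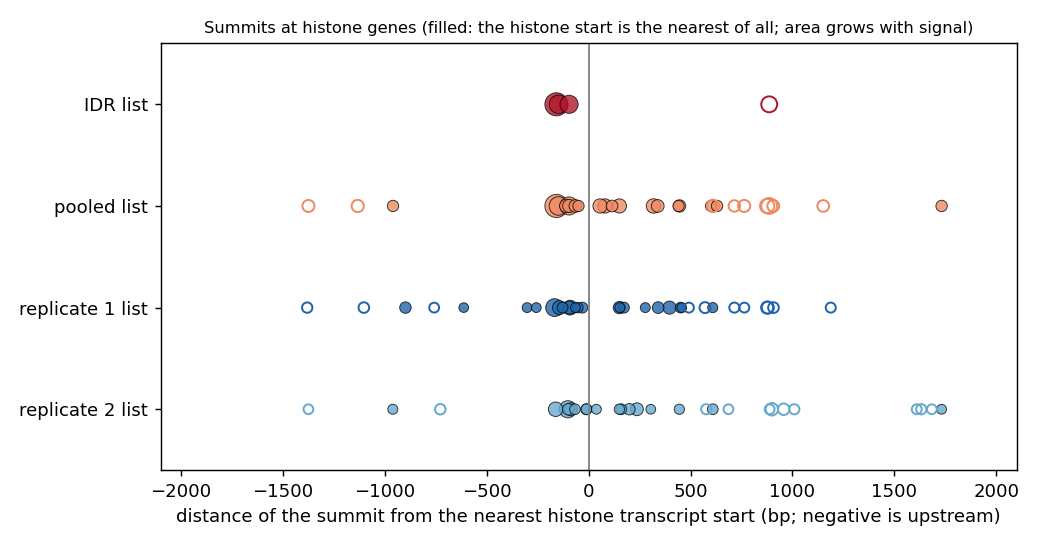
Distance in bp from each summit to the nearest histone transcript start (negative is upstream) in the 4 lists; filled circles are summits for which that histone start is the nearest of all starts, and circle area grows with the authors' signal, which is comparable within a row only. The 3 filled IDR summits lie 96 to 158 bp upstream, and the open one 886 bp downstream of his-35.

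After the his-60/his-59 summits, the core histone pairs with the strongest pooled summits outside the IDR list were his-31/his-32 on chromosome IV and those of the his-4 to his-1 cluster on chromosome V. None of these reached a q of 0.05 in the pooled list. The pair his-31 (H4) and his-32 (H3) had 1 summit between the genes, 95 bp upstream of his-32, with a pooled signal of 45.4 (rank 1861), 21.9 in replicate 1 and 28.6 in replicate 2. A second lay in the his-32 coding exon, 151 bp past the start, with a pooled signal of 54.3 (rank 1213), 36.3 in replicate 1 and 18.5 in replicate 2. Which of these 2 summits was stronger therefore differed between the replicates. The neighbouring his-33 (H2A) and his-34 (H2B) had no nearer summit of their own and were counted through this coding-exon summit, 1262 bp away.

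The cluster his-4 (H2B), his-3 (H2A), his-2 (H3) and his-1 (H4) had a pooled summit in the printed region, 65 bp upstream of his-4, with a signal of 39.3 (rank 2960), 14.4 in replicate 1 and 21.4 in replicate 2. A pooled summit of 39.4 (rank 2931) lay 339 bp into his-2, inside its coding exon, and was matched in replicate 1 (30.2) and not in replicate 2.

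**Figure D3:**
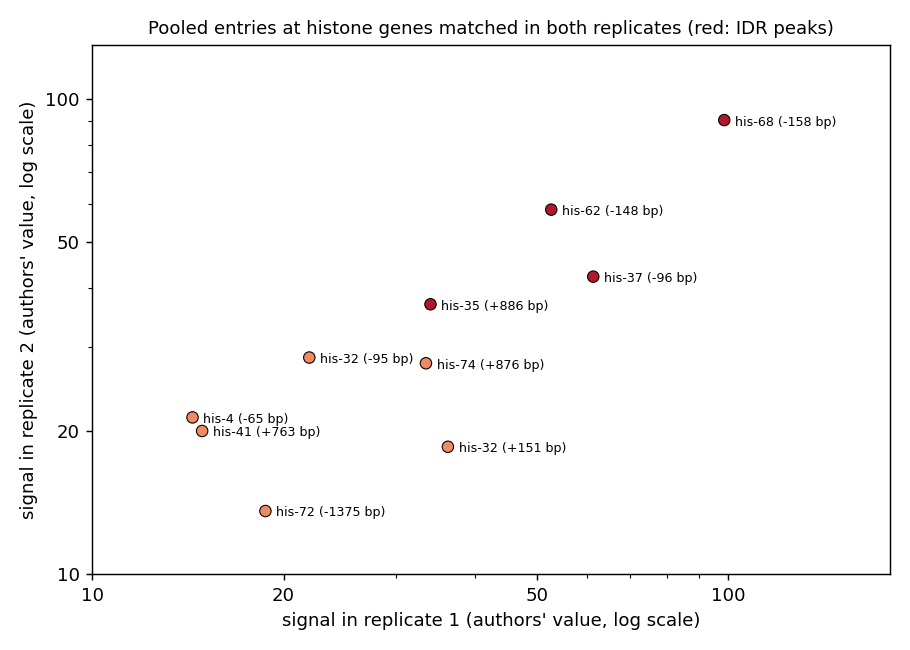
Signal in replicate 1 (x axis) and replicate 2 (y axis), both the authors' values on log scales, of the 10 of 28 pooled entries at histone genes matched within 100 bp in both replicates, each labelled with the nearest histone gene and its distance; the 4 IDR peaks are red. The his-68 peak is the strongest in both replicates (98.6 and 90.2), and of the 10 entries the 4 IDR peaks have the highest signals in replicate 2.

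The variant and linker genes are single genes with little sequence repeated elsewhere, and none had an IDR summit. The IDR share was 5.79% of all protein-coding genes under 50% repeated, so an absence in so few genes says little. All 5 H3.3-type genes and his-24 had a pooled summit within 2 kb, against 41.6% of all protein-coding genes under 50% repeated. Only that of his-72 had a q of at most 0.05, and for his-74 and his-69 the nearest start was another gene's. The H3.3 gene his-72 had the pooled signal nearest below the IDR list, 57.3 at rank 1072, with the summit in its intron 318 bp past the start. Replicate 1 listed it with 44.0 at rank 500, within 300 bp of the snoRNA gene Y49E10.36, and replicate 2 had no summit within 100 bp. The replicate 2 summit nearest to the start lay 11 bp upstream of the start, with 24.4 at rank 2525.

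The linker histone gene his-24 had a pooled summit of 56.0 (rank 1129) in a coding exon 80 bp past its start. Neither replicate had a summit within 100 bp of it: replicate 1 had one of 23.2 at 31 bp upstream of the start, and replicate 2 had one of 27.5 at 200 bp past it. A second, weaker pooled summit (27.2) lay 1732 bp past the start. The summit counted for the H3.3-type gene his-74 (55.4, rank 1160) lay 876 bp past its start and 35 bp past that of ccch-3, the nearest start. It was listed in replicate 1 with 33.5 and in replicate 2 with 27.8.

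The other H3.3-type genes had pooled entries in the lower part of the pooled list only. The gene his-70 had a pooled summit of 26.2 (rank 11958) 50 bp upstream. It was listed in replicate 1 with 20.2 at rank 4279, above the median signal of 16.5 in that list, and in replicate 2 not at all. The gene his-69 had one of 28.2 (rank 9580) that was nearer to rcq-5, a RecQ helicase gene. The H3.3 gene his-71 on chromosome X had one of 26.7 (rank 11212) 960 bp upstream, with 16.1 at that place in replicate 2 and summits of 14.6 and 13.1 nearer the gene in replicate 1.

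By chromosome, the IDR peaks at histone genes were 1 on I, 1 on IV and 2 on V, and none lay on II, III or X. The pooled entries were 1 on I, 3 on II, 6 on III, 7 on IV, 8 on V and 3 on X. The large chromosome II cluster of 13 genes, his-16 to his-42, had 3 pooled entries, with signals from 25.9 to 34.9. They lay within 2 kb of 7 of the 13 genes, against 40.7% of all protein-coding genes. Of its 7 units, 4 had a pooled summit within 2 kb and 2 had the nearest one. Pooled summits were absent within 2 kb at 6 clusters: his-47 to his-45 and his-66 to his-64 on IV, his-8 to his-39 and his-50 to his-53 on V, his-38 with his-40 on X, and his-73 on II. The clusters his-47 to his-45, with 4 genes, and his-50 to his-53, with 6 genes, had none in any of the 4 lists. Replicate 2 alone listed summits at the other 4 of these clusters: 22.4 inside his-5, 14.8 near his-73, 14.0 near his-63 and 13.7 inside his-38.

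By class, an IDR summit within 2 kb was listed for 3 of 17 H2A, 2 of 16 H2B, 1 of 15 H3 and 3 of 16 H4 genes. A pooled summit was listed for 8 of 17 H2A, 6 of 16 H2B, 7 of 15 H3 and 8 of 16 H4 genes. The background shares over all protein-coding genes were 5.65% in the IDR list and 40.7% in the pooled list. No class was tested against them. The 4 core classes share units and summits, so the class counts are not independent. The fragments his-39 and his-73 had no pooled summit.

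Histone genes differ from most genes in how much of the sequence about their start is present elsewhere in the genome. Of the 36-base words in the 600 bases about the gene's 5′ end, a median of 93.6% occurred more than once in the genome for histone genes, against 0 for all protein-coding genes, and 90.9% with words of 50 bases. At least 50% of the words were repeated for 43 of 72 histone genes (59.7%), against 590 of all 19973 (2.95%). None of these 43 had an IDR summit within 2 kb, against 1.02% of all genes that are as repeated, and 13 (30.2%) had a pooled summit, against 11.2%. Those 13 genes rest on 7 pooled entries, as neighbours share summits. Of the 22 promoter units that hold the 43 genes, 3 had the nearest pooled summit at such a gene. Replicate 1 listed 7 of the 43 (16.3%), against 15.3%, and replicate 2 listed 10 (23.3%), against 13.6%.

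Of the 29 histone genes with under 50% of the words repeated, 9 (31%) had an IDR summit, against 5.79% of all such genes, and 22 (75.9%) had a pooled summit, against 41.6%. The counts were 22 (75.9%) in replicate 1, against 51.7%, and 26 (89.7%) in replicate 2, against 53.8%. The 9 genes with an IDR summit again rest on 4 peaks in 3 clusters, and neighbouring members share summits. In the 600 bases about each summit at histone genes, the repeated share reached at most 13.1% for the 4 IDR peaks, 39.3% for the 28 pooled entries and 42.1% for the 32 entries of replicate 1. In replicate 2, 1 of 28 entries, the one inside his-5, reached 63.5%. Over whole lists, windows with at least 50% of the words repeated made up 1.1% of IDR peaks and 0.368% of pooled entries. The treatment of reads with several matching places is not known here, and the part of repeated sequence in the absence of summits was not tested.

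**Figure D4:**
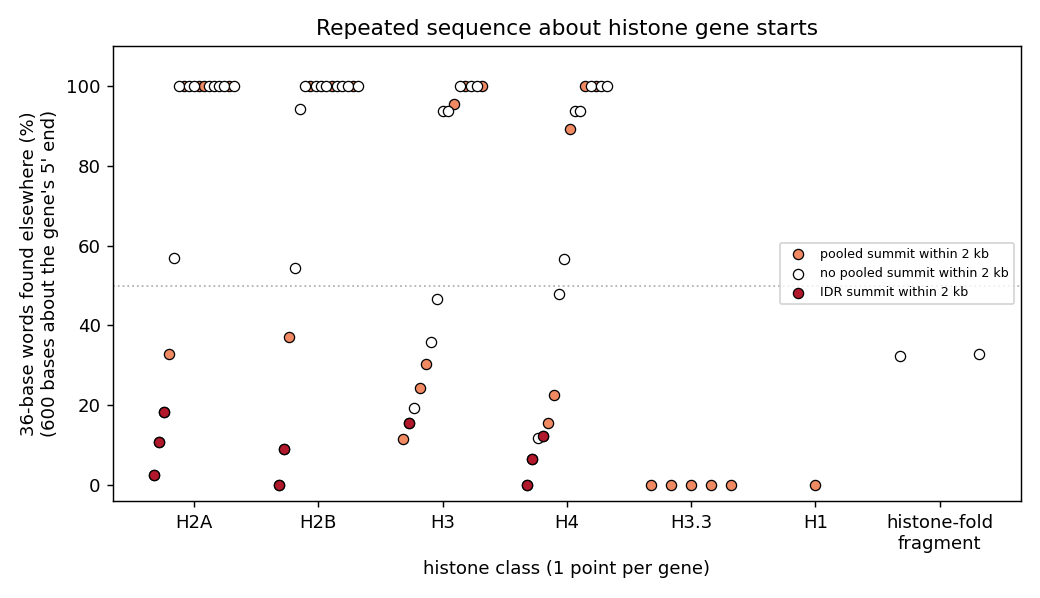
Percent of 36-base words in the 600 bases about each histone gene's 5′ end that occur elsewhere in the genome, by histone class (1 point per gene; points at 100% overlap), with fill showing whether an IDR summit, a pooled summit alone or no pooled summit lay within 2 kb. The genes with an IDR summit all lie under 20%, and H3.3 and H1 genes at 0.

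**Figure D5:**
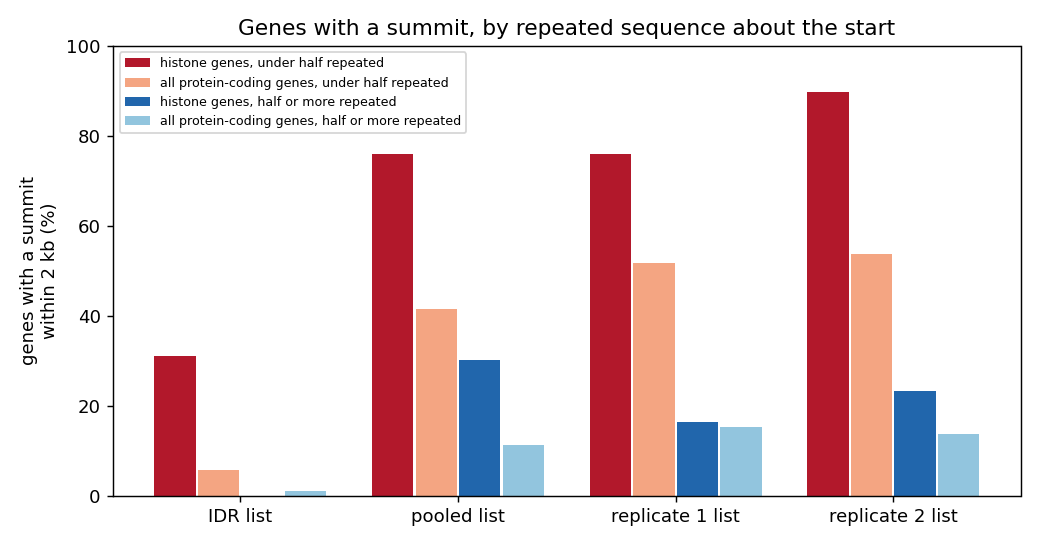
Percent of genes with a summit within 2 kb in each list, for histone genes and for all protein-coding genes, split at 50% of the 36-base words about the start being repeated. Histone genes under 50% repeated reach 75.9% in the pooled list and those with 50% or more 30.2%, against 41.6% and 11.2% of all protein-coding genes. Neighbouring histone genes of both kinds share summits.

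Pairs were also counted by whether their region is an exact copy over its whole length, and the difference was not tested. Of the 16 pairs whose region between the genes is an exact copy of another, 2 had a pooled summit with its nearest start in the pair, his-16/his-15 and his-25/his-26, 441 bp past the his-16 start and 630 bp past the his-25 start, outside the regions between the genes. Of the 15 pairs without such an exact copy, 7 had one, and for 5 of them a pooled summit lay between the genes. Those of his-58/his-57 and his-2/his-1 lay 601 bp past the his-57 start and 339 bp past the his-2 start. Some of the 15 are near copies of another pair. The whole 283 bases of his-58/his-57 are found in the his-47/his-48 region, and the his-46/his-45 and his-55/his-56 regions were 99.6% identical. The his-61/his-62 region, which held an IDR peak, was 79.5% identical to that of his-47/his-48, which held no summit, with a longest shared run of 32 bases. The his-47/his-48 region is an exact copy of that of his-66/his-65. About the starts, a mean of 97.1% of the 36-base words were repeated at his-47/his-48, against 13.7% at his-61/his-62.

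Histone promoters shared a few short words. The word CTCCNCC, which belongs to an element described upstream of worm core histone genes, was found on either strand in 66 of 72 promoters of 300 bases (250 before to 50 after the 5′ end; 91.7%), against 13.7% of all promoters. Many of these promoters are copies, and of 51 distinct histone promoters 45 (88.2%) held it. All 31 regions between paired genes held CTCCNCC at least once. The word TATAAA was found in 65.3% of histone promoters, against 37.9% of all promoters, and CCAAT in 54.2%, against 45.5%.

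Words tied to POU homeodomain factors were counted in the same way. ATGCAAAT, the octamer of POU factors, was in none of the 72 promoters, against 2.86% of all promoters, and ATNATTAAT, a form of the class IV POU site, was in none, against 4.05%. TAATTA, a homeodomain core, was in 1 (1.39%), against 15.5%. None of these 3 words was found within 100 bases of the 4 IDR or 28 pooled summits at histone genes. Over all 816 IDR summits the shares were low as well, 1.1% for the octamer, 1.23% for the class IV POU site and 6.37% for the homeodomain core, so counts of 0 in so few windows say little. The word CTCCNCC was within 100 bases of 3 of the 4 IDR summits at histone genes, against 17.8% of all IDR summits, and of 11 of the 28 pooled summits, against 10.6% of all pooled summits. It was in 15 of 16 histone promoters with a nearest pooled summit and 51 of 56 without. Its presence near these summits therefore says little about them. GAGAGAGA was in 2 histone promoters (2.78%), against 3.54% of all promoters, and near 1 of the 4 IDR summits, against 6.99% of all IDR summits. A match only records these letters in the window.

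The histone genes of the IDR list were also compared with the ranks of the replicates. The IDR list was made from these same replicates, so the overlap is not separate support. Among the 816 strongest entries of replicate 1, 14 of 72 histone genes had a summit within 2 kb, against 5.52% of all protein-coding genes. In replicate 2 they numbered 9 of 72, against 5.3%. These counts rest on 6 entries of replicate 1 and 5 of replicate 2. The genes found in both were the same 9 as in the IDR list, against 3.72% of all protein-coding genes. Replicate 1 added his-31, his-32, his-33, his-34 and his-72 to them.

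Among histone genes with other names, 2 of 10 had an IDR summit within 2 kb and 7 of 10 a pooled one, beside the 5.65% and 40.7% of all protein-coding genes given above. The IDR summits were at hil-7, a linker histone-like gene (87.5, rank 438, 193 bp upstream), and htz-1, the gene of the variant H2A.Z (68.3, rank 737, 285 bp upstream). The summit of htz-1 was listed in replicate 1 with 40.2 and in replicate 2 with 28.9. The gene hil-7 had 70.9 in replicate 1, 185 bp upstream, whereas the strongest summit of replicate 2 within 2 kb lay 926 bp past the start, with 27.1. The gene hcp-3, which encodes the centromeric H3 variant, had a pooled summit of 45.1 at rank 1897, 108 bp upstream.

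Of 12 genes for histone mRNA processing and histone chaperones, 2 had an IDR summit, against 5.65% of all protein-coding genes, and 10 a pooled summit, against 40.7%. This list and that of the 10 genes above were chosen with earlier results of these data known. Neither was counted at a q of at most 0.05. The genes lin-53 and rba-1 share 1 pooled entry, at rank 1085 and 1911 bp from rba-1. Apart from these, chaf-2 and unc-85, the strongest pooled summits ranked from 1612 to 10789. The gene chaf-2, for a subunit of the replication-coupled chromatin assembly factor, had 162.6 at rank 122, 214 bp upstream, with 91.6 in replicate 1 and 70.7 in replicate 2. The gene unc-85, which encodes an H3 and H4 chaperone of the ASF1 family, had 132.8 at rank 183, 480 bp upstream, with 72.4 in replicate 1 and 57.8 in replicate 2. The gene cdl-1, whose protein binds the histone mRNA stem-loop, had 40.2 at rank 2739, 1913 bp upstream, listed in replicate 1 and not in replicate 2. The chaf-2 and unc-85 peaks ranked between the his-67/his-68 peak and the his-61/his-62 peak.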

How the data were processed

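The deposited lists hold entries in narrow-peak form with a signal value and a −log10 q value per peak, both made by the authors. One list was made per replicate and one on pooled alignments as input to IDR, and the IDR list holds peaks past its threshold, per the file headers. The sources used here do not give the caller, the aligner, the threshold or the depth. The ce11 lists were used, and the summit is the interval start plus the deposited offset. The replicate and pooled lists hold background regions beside peaks, with a median −log10 q of 0.0726 to 0.0899. Signal ranked entries within a list, and the deposited −log10 q values described them and gave an alternative at a q of at most 0.05, added after the data were seen. Summits were linked to any Ensembl release 115 transcript start within 2 kb, and peaks shared by several genes were counted once as peaks. Of 72 members, 50 distinct symbols remain in that annotation, so RefSeq symbols were joined through locus tags (72 of 72 matched). Sequences and products came from RefSeq WBcel235. Genes named in the text are those with an IDR summit, the 12 units of highest pooled signal, the variant and linker genes, and the members on either side of the IDR minimum. The remaining names were chosen after values were seen. Members, lists and patterns were chosen with earlier results of these data known. With 1 group, no test was run. The share of repeated words is a match count in that genome, on both strands. Alternatives changed the distance, the assignment, the overlap rule, the starts, the peaks kept and the replicate left out. Steps were tested on simulated data. Python 3.11.15, numpy 2.4.6, pandas 2.3.3, and matplotlib 3.10.9 were used.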

Additional observations from a re-analysis of the deposited data

How the results depend on the processing

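The 5 counts were recomputed under 51 alternatives, of which 37 stayed within 1.5 times the value given. Histone genes with an IDR summit (9) numbered 5 within 500 bp and 3 by nearest start alone. With the 816 strongest entries of 1 replicate used instead, they numbered 9 without replicate 1 and 14 without replicate 2. Histone genes with a pooled summit (35) numbered 16 within 500 bp and 16 by nearest start. Those listed in both replicates (25) numbered 14 within 500 bp, 9 by nearest start and 9 with the 816 strongest entries of each, and 29 to 36 with 1 replicate alone. Distinct pooled entries (28) numbered 15 within 500 bp, 44 within 5 kb and 18 among the 6392 strongest pooled entries. With entries of q at most 0.05 alone, a setting added once the data had been seen, histone genes with a pooled summit numbered 10, those listed in both replicates 9 and distinct pooled entries 5. Distinct IDR peaks (4) numbered 3 to 6 over all alternatives, 5 to 6 of them with 1 replicate alone. Leaving out peaks near small RNA genes changed none of the 5 counts. The counts depend on the distance allowed; members that lie close together share summits. No paired analysis was possible because the study has 1 group. The depth is unknown, so no list shows that a histone promoter without a summit is unbound, and repeated copies cannot be told apart from the lists.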
